A study of Homo sapiens with 29 samples.

Results

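NQO1, NQO2, CBR1, CBR3, CBR4 and PTGR1 encode reductases of quinones, carbonyls and enones, and their RNA was followed through lung cancer cells in which NRF2, NR0B1 or SNW1 had been knocked down. The 6 genes were chosen from 23710 gene symbols, because NQO1 and genes near it in function differed between 2 cell lines after NRF2 knockdown. The NRF2 knockdown values and the levels that set the lines apart therefore chose the genes, and they are described below without a test. RNA sequencing covered 27 of the 29 samples in the series, as 9 groups of 3 libraries, and the chromatin samples are not analysed here. Per the series text, the study measured what changes when NR0B1 is depleted in a single line and NRF2 in a pair of lines.

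H460 and H2122 are established human non-small cell lung cancer lines. Both are known for mutated KEAP1, whose normal product directs NRF2 to destruction, so NRF2 is known to be stable in these cells, controls included. In H2122, the groups carried a short hairpin against NRF2 (H2122 shNRF2) or against GFP (H2122 shGFP, the control) for 24 h. In H460, they carried a hairpin against NRF2, NR0B1, SNW1 or GFP for 72 h. H460 cells without a hairpin on their labels received 30 µM BPK29, 30 µM BPK9 or the solvent DMSO for 12 h, and the compounds are known here only by those code names. Polyadenylated RNA was used throughout. The labels name no hairpin sequence or clone and do not say whether libraries came from separate cultures. Every p-value rests on the spread within groups of 3 libraries, pooled over the groups of a fit and moderated across genes. The 3 libraries of a group could be technical replicates. Line and knockdown time change together, so they cannot be told apart.

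NQO1 is a cytosolic flavoprotein that reduces quinones to hydroquinones by a hydride transfer and is a textbook target of NRF2, which binds antioxidant response elements in its target genes. NQO2 is a relative of NQO1 that uses dihydronicotinamide riboside in place of NADPH. CBR1 and CBR3 are closely related short-chain carbonyl reductases, of which CBR1 reduces prostaglandins and anthracyclines; CBR4 is a mitochondrial quinone reductase that also serves, with HSD17B8, as the ketoacyl reductase of mitochondrial fatty acid synthesis; PTGR1 reduces the double bond of enones such as 15-oxo-prostaglandins and inactivates leukotriene B4.

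Promoters for 5 of the 6 genes were found in RefSeq (GRCh38.p14), from 250 bases before to 50 bases after the annotated start; CBR3 was not in that table. The 3 shown differ in the short motifs searched on both strands, NQO1 and NQO2, both lower after NR0B1 and after SNW1 knockdown, included. Capitals mark the TATA box core TATAA in NQO1 (chr16:69726511-69726810, minus strand), the GC box core GGGCGG in NQO2 (chr6:2999644-2999943, plus strand) and, in CBR1 (chr21:36069774-36070073, plus strand), a match to the antioxidant response element core TGACNNNGC read on the opposite strand. Each is written 5′ to 3′ along its gene.
NQO1: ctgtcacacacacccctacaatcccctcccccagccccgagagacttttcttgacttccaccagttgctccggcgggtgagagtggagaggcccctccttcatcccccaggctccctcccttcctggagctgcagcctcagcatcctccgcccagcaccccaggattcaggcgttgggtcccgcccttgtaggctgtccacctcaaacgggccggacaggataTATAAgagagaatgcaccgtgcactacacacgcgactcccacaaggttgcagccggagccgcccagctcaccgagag
NQO2: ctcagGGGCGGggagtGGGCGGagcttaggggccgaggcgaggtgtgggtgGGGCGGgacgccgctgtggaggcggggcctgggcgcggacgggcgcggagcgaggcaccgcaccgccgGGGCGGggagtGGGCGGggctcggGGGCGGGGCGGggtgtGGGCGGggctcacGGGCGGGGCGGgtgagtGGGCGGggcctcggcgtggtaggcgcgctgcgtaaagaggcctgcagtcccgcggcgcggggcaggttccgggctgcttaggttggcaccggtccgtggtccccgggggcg
CBR1: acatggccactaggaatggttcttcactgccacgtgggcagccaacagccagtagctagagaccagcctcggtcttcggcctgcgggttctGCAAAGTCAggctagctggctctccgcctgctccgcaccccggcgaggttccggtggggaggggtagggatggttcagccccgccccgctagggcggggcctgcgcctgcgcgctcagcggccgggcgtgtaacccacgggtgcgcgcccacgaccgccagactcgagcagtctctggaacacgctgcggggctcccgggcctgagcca

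TATAA occurred once in the NQO1 window, 27 to 23 bases before the start, and in 20.4% of all 35116 promoters of the same length. GGGCGG occurred 11 times in the NQO2 window, all on the gene's own strand and partly overlapping each other, and at least once in 45.0% of all promoters. It occurred 3 times in the NQO1 window, 2 times in that of CBR1 and once in that of PTGR1, and was not found in that of CBR4. The CBR1 match to TGACNNNGC lay 159 to 151 bases before the start, and 13.3% of all promoters held that core. None was found in the windows of NQO1, NQO2, CBR4 or PTGR1; the antioxidant response element known for NQO1 lies further upstream than this window. A match is a description of letters, not evidence of binding. G and C made up 80.3% of the NQO2 window, 62.7% of the NQO1 window and 69.3% of the CBR1 window, against a median of 58.7% over all promoters.

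The libraries held 16709572 to 24613136 recovered reads in the knockdown groups and 19076855 to 24823666 in the compound groups. Replicate 3 of H460 shGFP stood somewhat apart: its mean chi-square per gene against the other replicates was 6.25 and 4.89, while no other pair of replicates passed 2.61, so H460 knockdown results are also given without it. NFE2L2, which encodes NRF2, averaged 26.6 FPKM in H2122 shNRF2 against 58.5 in H2122 shGFP, and 26.8 in H460 shNRF2 against 43.3 in H460 shGFP. NR0B1 averaged 18.2 FPKM in shNR0B1 against 47.6 in H460 shGFP, and SNW1 32.2 in shSNW1 against 51.2. The targets also differed under the other hairpins: NR0B1 averaged 0.966 FPKM in H2122 shNRF2 against 18.7 in H2122 shGFP, and 9.06 in H460 shNRF2 and 59.9 in H460 shSNW1 against 47.6 in H460 shGFP. NFE2L2 averaged 54.5 FPKM in shNR0B1 and 57.3 in shSNW1 against 43.3 in H460 shGFP. KEAP1 averaged 25.0 FPKM in H2122 shNRF2 against 40.6 in H2122 shGFP. The keratins KRT8, KRT18 and KRT19 were high in both lines, whereas the epithelial markers EPCAM and CDH1 averaged 333 and 75.7 FPKM in H2122 shGFP and 0.888 and 0.00957 FPKM in H460 shGFP. Of 6 immune markers, PTPRC and CD3E were at or near 0 in every group, while CD68 averaged 21.6 to 96.5 FPKM, CD14 reached 10.7 FPKM in H460 shNR0B1, and LYZ and CD79A reached 5.16 and 4.61 FPKM in H2122 shNRF2.

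In every knockdown group NQO1 was the most abundant of the 6 transcripts, in FPKM, which are scaled to gene length and library depth. In such bulk RNA, fewer cells that hold a transcript and less of it per cell cannot be told apart. NQO1 made up 69.1% of their summed FPKM in H2122 shNRF2 against 46.2% in H2122 shGFP, and 86.6% in H460 shNRF2, 66.6% in H460 shNR0B1 and 68.8% in H460 shSNW1 against 74.1% in H460 shGFP. CBR4 was the least abundant in all 6 groups, with group means from 3.77 to 12.7 FPKM and 215 to 1049 reads in a library. Counting error therefore weighs most on CBR4 and CBR3, which had 169 to 4124 reads, and least on NQO1, which had 23822 to 80267.

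**Figure D1:**
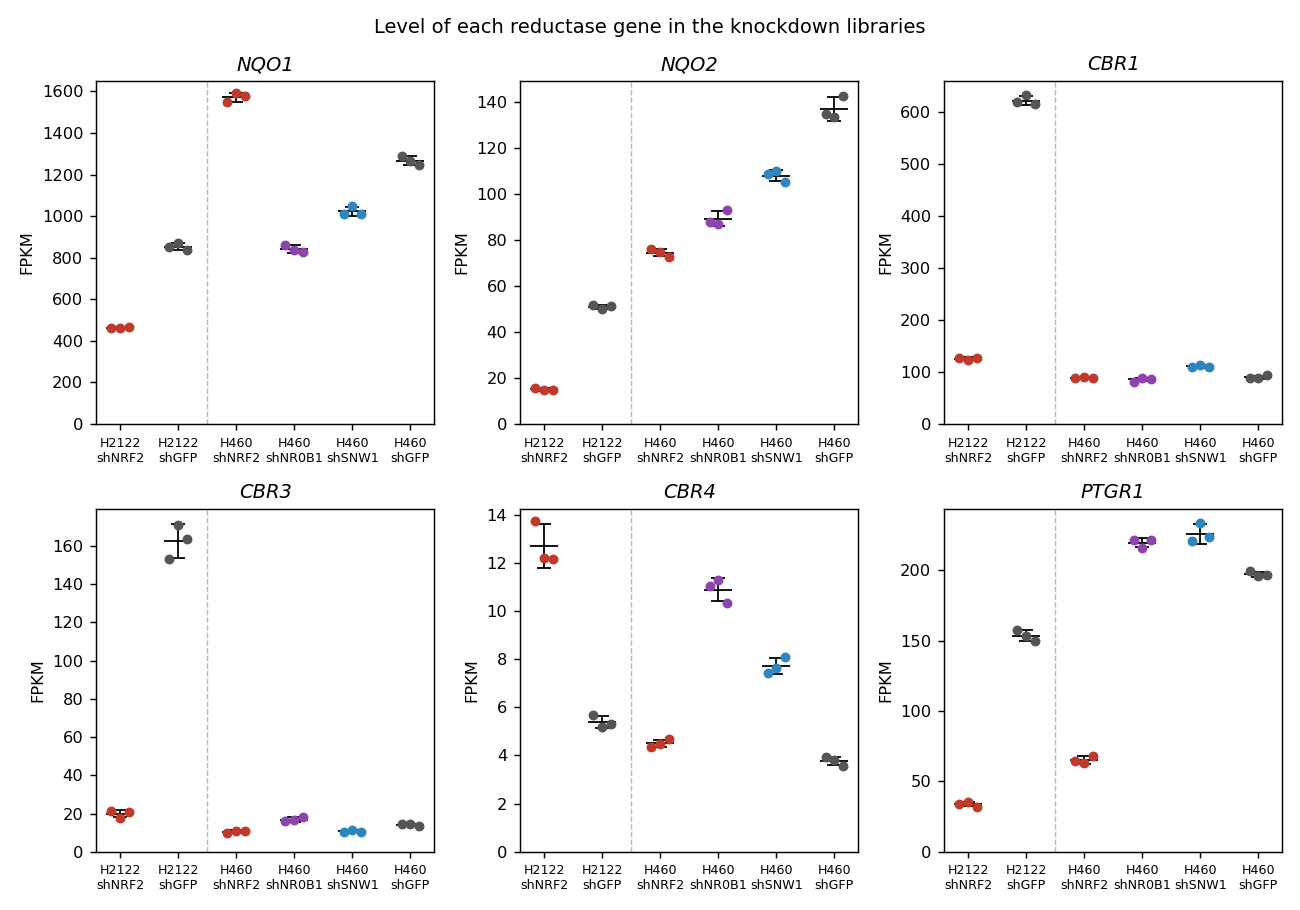
FPKM of each gene (vertical axes, each starting at 0) in the 18 knockdown libraries, by line and hairpin; points are libraries and the black marks are the mean and SD of 3. CBR1 and CBR3 stand high in H2122 shGFP alone, while CBR4 stands highest in H2122 shNRF2 and H460 shNR0B1.

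The genes ordered the 6 groups differently. NQO1 was highest in H460 shNRF2, followed by H460 shGFP and H460 shSNW1, then by H2122 shGFP and H460 shNR0B1, whose libraries overlapped (836.6 to 871.1 and 828.5 to 862.3 FPKM), and was lowest in H2122 shNRF2. The highest NQO1 group mean was 3.39 times the lowest. NQO2 ran from H460 shGFP down through shSNW1, shNR0B1 and shNRF2 of H460 to H2122 shGFP and H2122 shNRF2, with no overlap between neighbours and a span of 9.09 times. CBR1 and CBR3 were highest in H2122 shGFP, with spans of 7.25 and 15.4 times. CBR1 did not separate H460 shGFP, shNRF2 and shNR0B1 by order, since neighbours overlapped, and CBR3 overlapped between H2122 shNRF2 and H460 shNR0B1 and between H460 shSNW1 and H460 shNRF2. PTGR1 was highest in H460 shSNW1 and H460 shNR0B1, which overlapped, and lowest in both shNRF2 groups, with a span of 6.67 times.

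The control groups of the 2 lines differed most in the carbonyl reductases. CBR1 averaged 622 ± 9.11 FPKM in H2122 shGFP and 90.0 ± 2.85 in H460 shGFP (SD, n = 3 each), a ratio of 6.90. CBR3 averaged 163 ± 8.75 FPKM in H2122 shGFP and 14.1 ± 0.618 in H460 shGFP, a ratio of 11.5. Both quinone reductases ran the other way: the ratio of H2122 shGFP over H460 shGFP was 0.674 for NQO1 and 0.373 for NQO2. It was 1.43 for CBR4 and 0.779 for PTGR1. In the NRF2 knockdown groups the ratio of H2122 over H460 was 1.41 for CBR1 and 1.89 for CBR3, so the carbonyl reductases were closer between the lines there, while for NQO1 it was 0.295 and for NQO2 0.202, further apart than in the controls.

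After NRF2 knockdown in H2122, 5 of the 6 genes were lower and CBR4 was higher. NQO1 stood at 462.1, 462.8 and 465.2 FPKM in the H2122 shNRF2 libraries and at 852.3, 871.1 and 836.6 in the H2122 shGFP libraries, a log2 fold change of -0.88 ± 0.0214 (SE). NQO2 stood at 15.8, 14.6 and 14.8 FPKM in shNRF2 against 51.8, 50.1 and 51.1 in shGFP (-1.70 ± 0.0335). No library of either gene overlapped the other group, and NQO2 was the further from its control. Fold changes here are on the log2(FPKM + 1) scale, which understates those of low genes. CBR1 stood at 127.8, 122.2 and 127.8 FPKM in H2122 shNRF2 against 618.3, 631.8 and 614.4 in H2122 shGFP, or 0.203 of the control mean. CBR3 stood at 21.4, 17.7 and 20.6 FPKM in H2122 shNRF2 against 153.5, 170.9 and 163.8 in H2122 shGFP, or 0.122 of the control mean. These carbonyl reductases were furthest below their controls of the 6 in H2122. PTGR1 stood at 34.2, 35.3 and 32.1 FPKM in shNRF2 against 157.4, 153.5 and 149.7 in shGFP (-2.15 ± 0.0362). CBR4 stood at 13.7, 12.2 and 12.2 FPKM in H2122 shNRF2 against 5.68, 5.17 and 5.32 in H2122 shGFP, 2.35 times the control mean. The groups did not overlap for any of the 6, in a comparison where 87.3% of all 11710 genes were called. The share of all genes without overlap was not counted, so this separation is not particular to the 6.

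In H460 after NRF2 knockdown, NQO2, CBR3 and PTGR1 were lower, NQO1 and CBR4 were higher, and CBR1 overlapped its control. NQO1 stood at 1547.2, 1590.4 and 1577.0 FPKM in H460 shNRF2 against 1289.5, 1266.0 and 1245.4 in H460 shGFP (log2 fold change 0.31 ± 0.0273). NQO2 stood at 75.9, 74.6 and 72.7 FPKM in shNRF2 against 134.6, 133.4 and 142.7 in shGFP (-0.87 ± 0.0363). The related pair thus parted, and the ratio of NQO1 over NQO2 was 21.1 in H460 shNRF2 against 9.25 in H460 shGFP. CBR1 stood at 88.6, 90.8 and 88.1 FPKM in shNRF2 against 88.5, 88.2 and 93.3 in shGFP, with overlapping libraries (-0.01 ± 0.0362). CBR3 stood at 9.63, 10.9 and 11.0 FPKM in shNRF2 against 14.5, 14.4 and 13.4 in shGFP (-0.39 ± 0.0621). PTGR1 stood at 64.1, 62.7 and 68.1 FPKM in shNRF2 against 199.2, 195.5 and 196.8 in shGFP, or 0.330 of the control mean. PTGR1 was furthest below its control of the 6 in H460. CBR4 stood at 4.34, 4.48 and 4.66 FPKM in H460 shNRF2 against 3.92, 3.81 and 3.58 in H460 shGFP (0.21 ± 0.0489), without overlap. Without replicate 3 of H460 shGFP, the folds of NQO1, NQO2, CBR1, CBR3, CBR4 and PTGR1 were 0.30, -0.84, 0.01, -0.43, 0.18 and -1.59. The summed fibroblast and endothelial markers were 16.9 to 17.8 FPKM in H460 shNRF2 against 8.62 to 9.48 in H460 shGFP, with 3 of 7 at 1 FPKM or more against 2. DCN, the fibroblast marker decorin, averaged 10.3 FPKM in shNRF2 against 0.800 in shGFP, and PDGFRB was higher too. The collagen marker COL3A1 went the other way, at 3.46 FPKM in shNRF2 against 6.18 in shGFP. COL1A1 averaged 0.409 against 0.489 FPKM, with overlapping libraries, and CDH5 was at 0 in both. Of the 4 markers of this list that were tested, 2 were called higher and 1 lower, against 40.9% and 39% of all 11938 genes. The part of these levels in the results was not tested.

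**Figure D2:**
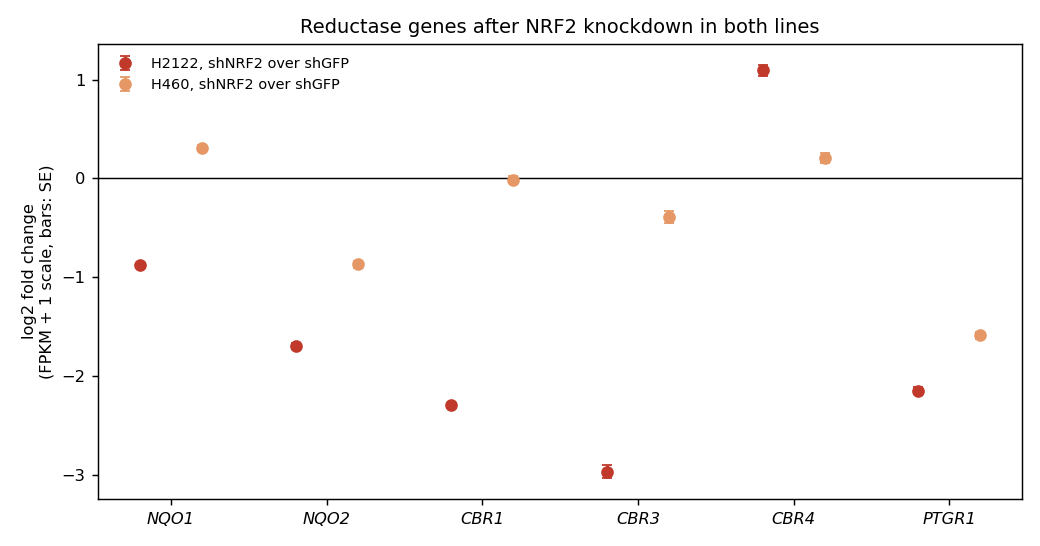
Log2 fold change on the FPKM + 1 scale (vertical axis) of each gene (horizontal axis) after NRF2 knockdown in H2122 and in H460; points are estimates and bars are SE from 3 against 3 libraries. NQO1 lies at -0.88 in H2122 and at 0.31 in H460, and CBR1 at -2.29 and -0.01.

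The difference of the folds, H2122 minus H460, was -1.19 ± 0.0336 for NQO1, -2.28 ± 0.0418 for CBR1 and -2.58 ± 0.0976 for CBR3. It was smaller for NQO2 (-0.83 ± 0.0505), PTGR1 (-0.56 ± 0.0549) and CBR4 (0.89 ± 0.076). NQO2 and PTGR1 were thus lower in both lines, and CBR4 was higher in both. These values follow from how the genes were chosen, and 71.6% of all 12798 genes fitted over both lines were called for such a difference, 37.4% with a higher and 34.3% with a lower value in H2122. The summed level of the 6 immune markers was 105.5 to 108.6 FPKM in H2122 shNRF2 against 46.2 to 47.5 in H2122 shGFP, with 3 markers at 1 FPKM or more against 1. CD68 averaged 96.5 FPKM in H2122 shNRF2 against 45.5 in H2122 shGFP, LYZ 5.16 against 0.359 and CD79A 4.61 against 0.327. LYZ and CD79A were below 1 FPKM in every H2122 shGFP library. They entered the fit only through the H2122 shNRF2 libraries, so no call is given for them. PTPRC and CD3E averaged 0.00202 and 0 FPKM in H2122 shNRF2. The summed epithelial markers were 3884 to 4012 FPKM in H2122 shNRF2 against 2566 to 2580 in H2122 shGFP. KRT19, KRT8 and CDH1 averaged 1940, 789 and 132 FPKM in H2122 shNRF2 against 781, 599 and 75.7 in H2122 shGFP. The others did not rise with them: KRT18 averaged 785 against 782 FPKM and EPCAM 290 against 333. The part of these levels in the results was not tested.

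NR0B1 is an orphan nuclear receptor best known for repressing other nuclear receptors, and its knockdown was not used to choose the genes. The H460 shGFP libraries it is compared with did help to choose them, through the NRF2 comparison. The p-values against shGFP, here and for SNW1, are therefore not independent of that choice. After NR0B1 knockdown, both quinone reductases fell, and CBR4 rose with the largest fold of the 6. NQO1 stood at 862.3, 835.4 and 828.5 FPKM in H460 shNR0B1 against 1289.5, 1266.0 and 1245.4 in H460 shGFP (log2 fold change -0.59 ± 0.0273; limma, Benjamini-Hochberg adjusted p = 5.91e-10). NQO2 stood at 87.8, 86.9 and 92.9 FPKM in shNR0B1 against 134.6, 133.4 and 142.7 in shGFP (-0.61 ± 0.0363; limma adjusted p = 6.05e-09). Every shNR0B1 library lay below every shGFP library for both, and the ratio of NQO1 over NQO2 was 9.44 in shNR0B1 against 9.25 in shGFP.

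Neither carbonyl reductase was called lower after NR0B1 knockdown. CBR1 stood at 81.7, 88.1 and 87.4 FPKM in shNR0B1 against 88.5, 88.2 and 93.3 in shGFP. That is a log2 fold change of -0.07, with a 95% interval of -0.15 to 0.01 (limma adjusted p = 0.102), and the sign turned to 0.01 after rescaling to a common total. CBR3 stood at 15.9, 16.4 and 18.3 FPKM in shNR0B1 against 14.5, 14.4 and 13.4 in shGFP (0.24 ± 0.0621; limma adjusted p = 0.00379). CBR3 was thus modestly higher, without overlap. CBR4 stood at 11.0, 11.3 and 10.3 FPKM in shNR0B1 against 3.92, 3.81 and 3.58 in shGFP, on 770 to 868 against 215 to 330 reads. It rose by 1.32 ± 0.0489 on the log2(FPKM + 1) scale (limma adjusted p = 8.15e-11), and the ratio of the mean FPKM was 2.89. PTGR1 stood at 221.4, 215.7 and 221.3 FPKM in shNR0B1 against 199.2, 195.5 and 196.8 in shGFP (0.15 ± 0.034; limma adjusted p = 0.00114). Of the 6 genes, 3 were called higher and 2 lower after NR0B1 knockdown, against 69.8% of all 11938 genes, so the share of called genes is close to the background. Over all genes, 33.1% (3946) were called higher and 36.8% (4391) lower, and with every library set to the same total the split was 4789 higher against 3573 lower. Without replicate 3 of H460 shGFP the same number was called, with folds of -0.60 for NQO1, -0.58 for NQO2, 0.20 for CBR3 and 1.29 for CBR4.

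Knockdown of SNW1, a coregulator of transcription and splicing, gave smaller falls of both quinone reductases and moved the 2 carbonyl reductases apart. NQO1 stood at 1012.9, 1048.0 and 1009.8 FPKM in H460 shSNW1 against 1289.5, 1266.0 and 1245.4 in H460 shGFP (-0.31 ± 0.0273; limma adjusted p = 3.4e-07). NQO2 stood at 108.5, 110.1 and 105.2 FPKM in shSNW1 against 134.6, 133.4 and 142.7 in shGFP (-0.34 ± 0.0363; limma adjusted p = 2.06e-06). CBR1, by contrast, stood at 109.5, 114.2 and 109.0 FPKM in shSNW1 against 88.5, 88.2 and 93.3 in shGFP (0.30 ± 0.0362; limma adjusted p = 7.26e-06). CBR1 was the only one of the 6 that was called in the SNW1 and not in the NR0B1 comparison. CBR3 stood at 10.4, 11.5 and 10.5 FPKM in shSNW1 against 14.5, 14.4 and 13.4 in shGFP (-0.36 ± 0.0621; limma adjusted p = 0.000181). The ratio of CBR1 over CBR3 was 10.3 in shSNW1 and 5.09 in shNR0B1, against 6.38 in shGFP. CBR4 stood at 7.41, 7.62 and 8.07 FPKM in shSNW1 against 3.92, 3.81 and 3.58 in shGFP (0.87 ± 0.0489; limma adjusted p = 4.36e-09), a ratio of means of 2.04. PTGR1 stood at 220.4, 233.6 and 223.5 FPKM in shSNW1 against 199.2, 195.5 and 196.8 in shGFP (0.19 ± 0.034; limma adjusted p = 0.000191). No library overlapped the other group for any of the 6 genes, and the share of all genes without overlap was not counted. All 6 were called, 3 higher and 3 lower, against 67.2% of all genes, with 30.8% (3671) higher and 36.4% (4349) lower, and with equal totals 4585 higher against 3524 lower. Without replicate 3 of H460 shGFP all 6 were still called, with folds from -0.39 for CBR3 to 0.84 for CBR4.

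**Figure D3:**
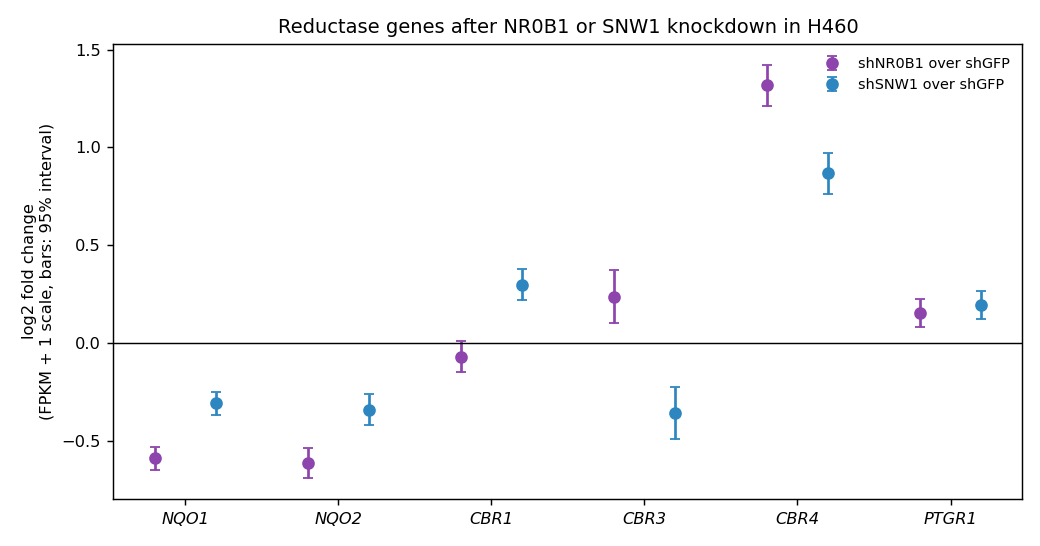
Log2 fold change on the FPKM + 1 scale (vertical axis) of each gene (horizontal axis) in H460 after NR0B1 or SNW1 knockdown against the same 3 shGFP libraries; bars are 95% intervals. NQO1 and NQO2 lie below 0 and CBR4 above 0 in both, while CBR3 lies above 0 after NR0B1 and below 0 after SNW1 knockdown; the interval of CBR1 crosses 0 after NR0B1 knockdown and lies above 0 after SNW1 knockdown.

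The NR0B1 and SNW1 comparisons share their control libraries, so their likeness is not a result, and the 2 knockdowns were compared with each other directly. NQO1 was lower in shNR0B1, at 842 ± 17.9 FPKM, than in shSNW1, at 1024 ± 21.2 (SD, n = 3 each; log2 fold change -0.28, limma adjusted p = 8.64e-07). NQO2 was likewise lower in shNR0B1 (-0.27, limma adjusted p = 1.71e-05). CBR1 was lower (-0.37, limma adjusted p = 1.01e-06) and CBR3 higher in shNR0B1 than in shSNW1 (0.60, limma adjusted p = 1.73e-06). The difference in CBR3 was the largest of the 6. CBR4 was higher in shNR0B1 (0.45, limma adjusted p = 2.59e-06). PTGR1 differed by -0.04, with a 95% interval of -0.11 to 0.03 (limma adjusted p = 0.306), and its libraries overlapped. Of the 6, 2 were called higher and 3 lower in shNR0B1, against 67.8% of all genes, 34.7% higher and 33.1% lower. The summed epithelial markers were 1198 to 1224 FPKM in shNR0B1 and 1884 to 1942 in shSNW1, against 1972 to 2249 in H460 shGFP, with 4, 4 and 3 of the 5 markers at 1 FPKM or more. These markers did not move together. KRT8 and KRT18 averaged 401 and 295 FPKM in shNR0B1 and 419 and 367 in shSNW1, against 532 and 608 in shGFP. KRT19 averaged 513 FPKM in shNR0B1 but 1118 in shSNW1, against 940 in shGFP. EPCAM averaged 1.29 and 1.28 FPKM against 0.888, and CDH1 was near 0 in each group. The summed fibroblast and endothelial markers were 17.7 to 18.6 FPKM in shNR0B1 and 6.76 to 7.15 in shSNW1, against 8.62 to 9.48 in shGFP, with 4, 1 and 2 of the 7 at 1 FPKM or more, while the endothelial marker CDH5 was at 0 in all 3. The part of these marker levels in the results was not tested.

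The compound libraries rest on other gene lengths than the knockdown libraries (for CBR4, 549 against 3501 bases), so only ratios to the mean of the DMSO libraries are given. BPK29 at 30 µM moved the genes by small amounts, with NQO1 lower and PTGR1 and CBR1 higher. NQO1 was at 0.916, 0.907 and 0.901 of the DMSO mean in the BPK29 libraries, against 0.996, 1.003 and 1.001 in the DMSO libraries (log2 fold change -0.14 ± 0.0205; limma adjusted p = 0.000397). With all libraries scaled to 1 total in place of the deposited scaling, the log2 fold change of NQO1 was -0.08 (limma adjusted p = 0.0102). PTGR1 was at 1.152, 1.168 and 1.150 in BPK29 against 1.001, 1.001 and 0.998 in DMSO (0.21 ± 0.0201; limma adjusted p = 2.83e-05). CBR1 was at 1.116, 1.149 and 1.149 in BPK29 against 1.014, 1.011 and 0.976 in DMSO (0.18 ± 0.0263; limma adjusted p = 0.000347). None of these groups overlapped. CBR4 was at 0.874, 0.964 and 0.915 in BPK29 against 1.008, 1.023 and 0.968 in DMSO (-0.12 ± 0.0391; limma adjusted p = 0.0255). The CBR4 call was lost after rescaling to a common total (-0.06; limma adjusted p = 0.225), on recovered reads with voom (-0.07; limma adjusted p = 0.292) and without replicate 1 or 3 of BPK29 or replicate 1 or 2 of DMSO (-0.12 to -0.09; limma adjusted p = 0.0629 to 0.0934).

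NQO2 and CBR3 did not pass the test after BPK29. NQO2 was at 1.036 to 1.080 of the DMSO mean in BPK29, against 0.983 to 1.018 in DMSO (limma adjusted p = 0.0597), and CBR3 at 1.035 to 1.088 against 0.998 to 1.003 (limma adjusted p = 0.131). Both were called higher after rescaling to a common total, NQO2 with 0.13 (limma adjusted p = 0.00306) and CBR3 with 0.12 (limma adjusted p = 0.0125). In all, 4 of the 6 genes were called after BPK29, 2 higher and 2 lower, against 50.4% of all 11461 genes, 21.1% (2418) higher and 29.3% (3359) lower, and with equal totals 3645 higher against 2313 lower.

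BPK9 at the same dose and time moved none of the 6 past the threshold. NQO1 was at 0.962, 1.006 and 0.990 of the DMSO mean in BPK9 against 0.996, 1.003 and 1.001 in DMSO (limma adjusted p = 0.681). PTGR1 was at 1.062, 1.091 and 1.096 in BPK9 against 1.001, 1.001 and 0.998 in DMSO, a log2 fold change of 0.11 with a 95% interval of 0.07 to 0.16 (limma adjusted p = 0.0909). CBR4 was at 1.088, 1.107 and 1.151 in BPK9 against 1.008, 1.023 and 0.968 in DMSO, or 0.15 with an interval of 0.07 to 0.24 (limma adjusted p = 0.166). PTGR1 and CBR4 did not overlap DMSO, but over all genes limma called only 0.00873%, a single gene of 11461, with 1725 at an unadjusted p under 0.05 and 238 called by voom. Voom called CBR1 and PTGR1 among the 6 (log2 fold changes 0.11 and 0.13; limma adjusted p = 0.0298 and 0.00078). NQO2, CBR1 and CBR3 were at 0.989 to 1.049, 1.059 to 1.092 and 1.005 to 1.045 of the DMSO mean in BPK9, and only NQO2 of these overlapped DMSO. A miss here does not show that BPK9 leaves these genes level.

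Set against each other, BPK29 and BPK9 differed in NQO1, CBR1, CBR4 and PTGR1. CBR4 was at 0.918 ± 0.0455 of the DMSO mean in BPK29 and 1.12 ± 0.0326 in BPK9 (SD, n = 3 each), without overlap (log2 fold change -0.28 ± 0.0391; limma adjusted p = 0.000367). NQO1 was at 0.908 ± 0.00776 in BPK29 and 0.986 ± 0.0227 in BPK9 (-0.12 ± 0.0205; limma adjusted p = 0.00123). With equal library totals the NQO1 difference was -0.07, while that of CBR4 was -0.23, of PTGR1 0.14 and of CBR1 0.13. PTGR1 was higher with BPK29, at 1.16 ± 0.0102, than with BPK9, at 1.08 ± 0.0182 (0.09; limma adjusted p = 0.00391). CBR1 was higher with BPK29 too (0.09; limma adjusted p = 0.0229), but not past the threshold without replicate 2 or 3 of BPK29 or replicate 1 or 3 of BPK9 (limma adjusted p = 0.06 to 0.0742). NQO2 and CBR3 differed by 0.05 (95% interval -0.01 to 0.12; limma adjusted p = 0.149) and 0.03 (-0.04 to 0.11; limma adjusted p = 0.451). NQO2 was called on rescaling to a common total, with 0.10 (limma adjusted p = 0.0131), and without replicate 2 of BPK9, with 0.08 (limma adjusted p = 0.0453). Of the 6, 2 were called higher and 2 lower with BPK29, against 46.9% of all genes, 19.7% (2258) higher and 27.2% (3121) lower, and with equal totals 3295 higher against 2290 lower. The summed fibroblast and endothelial markers were 69.8 to 77.9 FPKM in BPK29 and 105.7 to 111.2 in BPK9, against 107.5 to 119.8 in DMSO. In each group 3 of 7 were at 1 FPKM or more, and CDH5 was at 0 in all 3. COL3A1 made up most of these sums, at 50.3 FPKM in BPK29 and 76.3 in BPK9, against 84.9 in DMSO. Of the 3 tested, 1 was called lower with BPK29 against DMSO and 0 higher, against 29.3% and 21.1% of all genes. The summed epithelial markers were lower with BPK29 too, at 572 to 582 FPKM and 657 to 663 in BPK9, against 687 to 697 in DMSO. These sums rest on the gene lengths of the compound libraries, so they cannot be set against the sums of the knockdown groups. The part of these compound-group marker sums in the results was not tested.

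**Figure D4:**
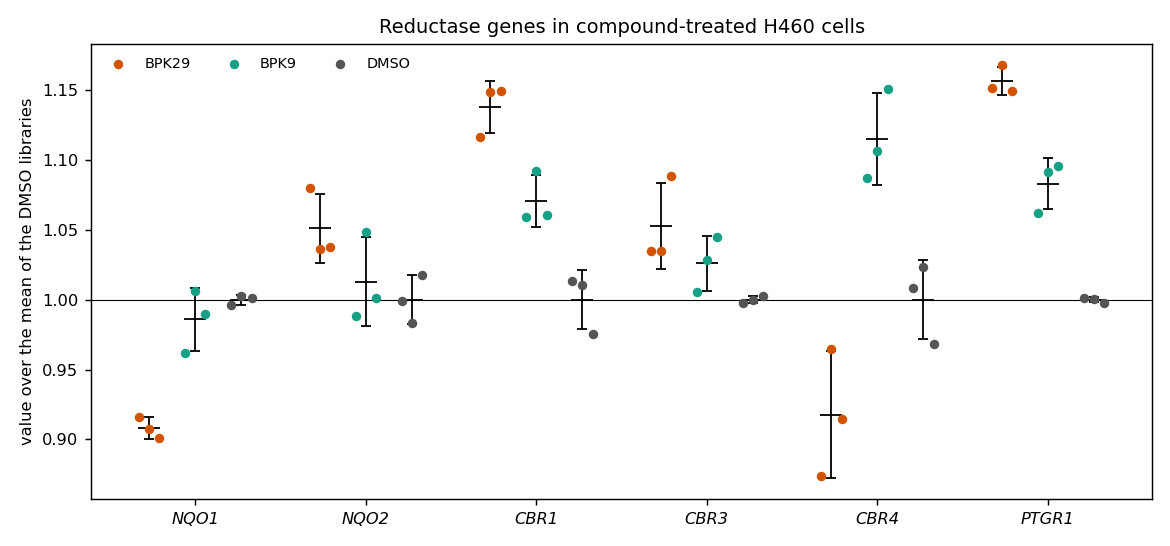
Value of each gene over the mean of the 3 DMSO libraries (vertical axis, ratio, not starting at 0) in H460 cells treated with BPK29, BPK9 or DMSO; points are libraries and black marks the mean and SD of 3. BPK29 libraries of NQO1 lie at 0.901 to 0.916, below every BPK9 and DMSO library.

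Related genes were counted in lists by function, chosen with earlier results of these data known. Calls and p-values of list genes are therefore descriptions of these data, not independent tests. In H2122, 87.3% of 11710 genes were called after NRF2 knockdown (limma adjusted p under 0.05), 48.8% higher and 38.5% lower, so sizes say more than counts there. Among flavoprotein quinone reductases, 5 of 12 rose and 4 fell. TXNRD1, the thioredoxin reductase, averaged 263 FPKM in H2122 shNRF2 against 980 in H2122 shGFP, a log2 fold change of -1.89. DHODH, which passes electrons from dihydroorotate to ubiquinone, had a log2 fold change of -1.61, and AIFM2, a ubiquinone reductase of the plasma membrane, one of -1.08. XDH, the xanthine dehydrogenase, was higher (1.45). The short-chain reductases split, with 6 of 13 higher and 7 lower. DCXR, the dicarbonyl and xylulose reductase, fell by 1.39, BLVRB, a biliverdin reductase, by 1.19 and HSD11B2 by 1.24 on the log2 scale. The enzymes of retinoid metabolism DHRS9, DHRS3 and RDH10 rose by 2.16, 1.56 and 1.31. DHRS9 averaged 369 FPKM in H2122 shNRF2 against 82.1 in H2122 shGFP.

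Of the medium-chain reductases, the family of PTGR1, 4 of 8 rose and 3 fell in H2122, and their median log2 fold change was 0.12 against 0.09 for all genes. VAT1 rose by 0.47 there, while CRYZ, a quinone reductase also known as zeta-crystallin, fell by 0.51 and RTN4IP1, a mitochondrial member, by 0.69. All 5 genes of mitochondrial fatty acid synthesis fell in H2122, with a median of -0.64, while CBR4, which shares that pathway, was higher. NDUFAB1, the acyl carrier protein, averaged 61.8 FPKM in H2122 shNRF2 against 132 in H2122 shGFP (-1.08), and HSD17B8, the partner of CBR4, had a fold of -0.30. Of 4 tested genes that conjugate hydroquinones and alcohols, 2 rose and 2 fell: SULT1A1, a sulfotransferase whose reads may be shared with close paralogs, rose by 0.17, UGDH, which makes the sugar donor of glucuronidation, fell by 2.21 and UGT1A6, a glucuronosyltransferase, by 0.92. Among genes of leukotriene and prostaglandin handling, 3 of 8 rose and 4 fell. PTGES, a prostaglandin E synthase, ALOX5, the 5-lipoxygenase, and HPGD, which oxidises prostaglandins to the substrates of PTGR1, rose by 1.16, 1.67 and 1.24, and PTGES3, a synthase and cochaperone, fell by 1.39.

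**Figure D5:**
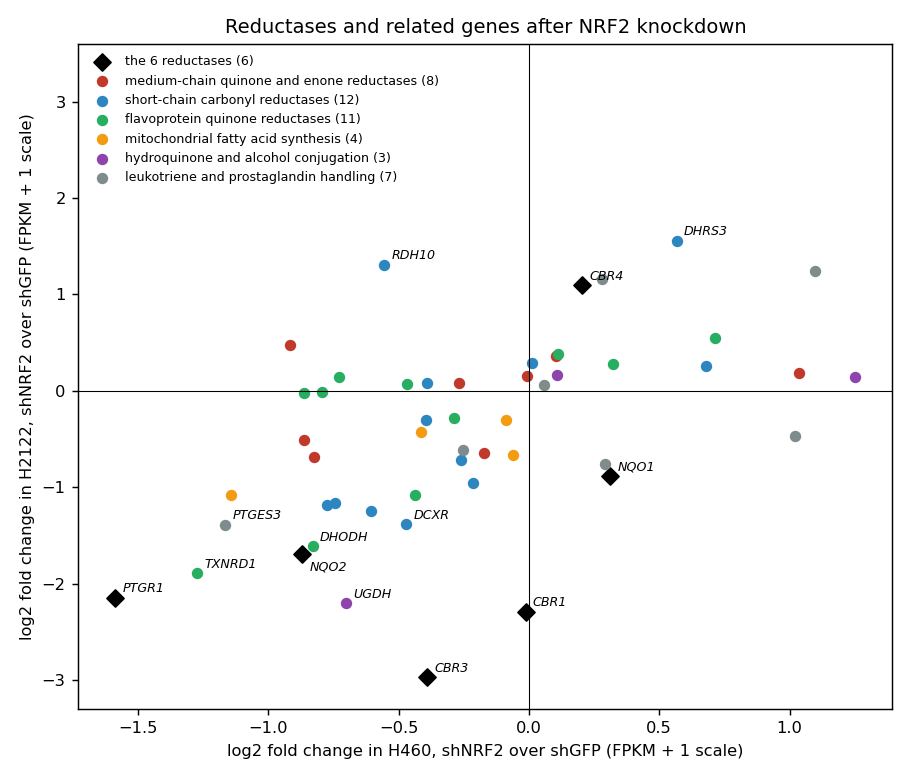
Log2 fold change on the FPKM + 1 scale after NRF2 knockdown in H2122 (vertical axis) and in H460 (horizontal axis) for the 6 reductases (diamonds) and genes of related lists (circles) fitted in both lines, each drawn once. CBR1 and CBR3 lie lowest on the H2122 axis, and PTGR1 furthest left on the H460 axis.

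In H460, 79.8% of 11938 genes were called after NRF2 knockdown, 40.9% higher and 39% lower. Flavoprotein quinone reductases fell in 8 of 11 and rose in 3 (2 rose after rescaling to a common total), with a median of -0.47 against 0.01 for all genes. TXNRD1 fell by 1.27, CYB5R4 by 0.86 and DHODH by 0.83, and CYB5R1, a cytochrome b5 reductase, rose by 0.71. Short-chain reductases fell in 10 of 13 and rose in 2, with a median of -0.40. The medium-chain reductases fell in 5 of 8 and rose in 1: VAT1, CRYZ and RTN4IP1 fell by 0.92, 0.86 and 0.83, and TP53I3, a quinone oxidoreductase induced by p53, rose by 1.03. VAT1 thus took opposite directions in the lines, like NQO1 but the other way round, with a difference of 1.39, H2122 minus H460. That difference is given without a test, since the lists were chosen with earlier results of these data known. Of all genes fitted over both lines, 71.6% were called for such a difference. Of mitochondrial fatty acid synthesis, 3 of 5 fell, NDUFAB1 by 1.14. UGDH fell by 0.70 in H460.

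The counts of related genes called after NR0B1 knockdown are to be read against 69.8% of all genes, 33.1% higher and 36.8% lower. Of the medium-chain reductases, 4 of 8 rose and 3 fell. TP53I3 rose by 0.83 and ZADH2, a relative of PTGR1, by 0.59, while CRYZ fell by 0.42. Short-chain reductases rose in 2 of 13 and fell in 6 (3 and 5 after rescaling to a common total), with BLVRB at 0.52 and RDH11, a retinol dehydrogenase, at -0.52. Flavoprotein reductases rose in 3 of 11 and fell in 5 (4 and 5 after rescaling), with CYB5R3 at 0.63 and FDXR, the ferredoxin reductase, at -0.46. HSD17B8, the partner of CBR4, averaged 2.03 FPKM in shNR0B1 against 1.38 in shGFP and rose by 0.35 (limma adjusted p = 0.00088). After SNW1 knockdown HSD17B8 averaged 0.871 FPKM against 1.38 in shGFP and fell by 0.35 (limma adjusted p = 0.00087), while CBR4 rose after both. PTGS1, a cyclooxygenase, rose by 0.82 after NR0B1 knockdown.

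After SNW1 knockdown, where 30.8% of all genes were called higher and 36.4% lower, short-chain reductases fell in 9 of 13 and rose in 3, with a median of -0.35 against -0.03 for all genes, and DHRS1 and RDH11 fell by 0.50 and 0.43. Medium-chain reductases fell in 5 of 8 and rose in 3 (4 and 3 after rescaling to a common total). UGDH rose by 0.80, PTGES2, another prostaglandin E synthase, by 0.65 and TP53I3 by 0.57, and PTGS2, the inducible cyclooxygenase, fell by 1.07. With BPK29, 5 of 12 short-chain reductases were called higher and 2 lower, against 21.1% and 29.3% of all genes, with BLVRB at 0.43, RDH13 at 0.26 and RDH11 at -0.29. Of the flavoprotein reductases 3 of 11 were higher and 3 lower with BPK29 (5 and 2 with equal library totals): SQRDL and CYB5R1 rose by 0.36 and 0.35, and CYB5R2 and CYB5R3 fell by 0.27 and 0.16. Among genes of leukotriene and prostaglandin handling, LTA4H and PTGS1, or 2 of 6, were called lower with BPK29 and none higher. PTGS1 lay near the minimum level for a test, so its call carries little weight. With equal library totals it fell below that level and was not tested, and 2 of 5 were higher and none lower. With voom 2 of 6 were higher and PTGS1 alone was lower (-0.91; limma adjusted p = 0.00161). BPK9 moved no member of any of these lists past the threshold with limma on log values.

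Genes whose level followed a member most closely over the 18 knockdown libraries were ranked by Pearson's r of log2(FPKM + 1), among 6317 genes with a group mean of at least 5 FPKM and a span of at least 1 on the log2 scale. The libraries share 2 lines and 4 hairpins, so r mainly reflects 6 group means and carries no p. For NQO1 the leading genes were LRRC8D (r = 0.992), OAF, ARV1, DUSP14 and C12orf75 (r = 0.968). LRRC8D, a subunit of volume-regulated anion channels, averaged 5.93 FPKM in H2122 shNRF2, 11.1 in H2122 shGFP, 23.6 in H460 shNRF2, 11.1 in shNR0B1 and 14.1 in shSNW1 against 20.1 in H460 shGFP, so it too was highest in H460 shNRF2. Among those for CBR1 were SMOC2, ASF1A, FECH and JAG2 (r = 0.969), and for CBR3 DIS3L (r = 0.988), FECH, FAM171A1, JAG2 and SMOC2 (r = 0.974). FECH, JAG2 and SMOC2 stood in both lists, and FECH, the ferrochelatase of haem synthesis, averaged 8.74 FPKM in H2122 shNRF2 against 33.6 in H2122 shGFP. For PTGR1 they were ZAK (r = 0.994), PLK1, CDCA8, KIF2C and PRMT3 (r = 0.991). PLK1, CDCA8 and KIF2C are known for their work in mitosis, and PLK1 averaged 12.5 FPKM in H2122 shNRF2 against 55.8 in H2122 shGFP and 22.9 in H460 shNRF2 against 71.6 in H460 shGFP.

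CBR1 and CBR3 are related in sequence, and how the authors' counting treated reads they may share is not given in the sources used here. They lie close together on chromosome 21, where CBR1-AS1 and CBR3-AS1 overlap them; HTATSF1P2, PALLD and ZNF483 overlap NQO2, CBR4 and PTGR1 in the RefSeq annotation. The library kit does not mark strand, so reads from overlapping genes cannot be told apart.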

How the data were processed

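Polyadenylated RNA was sequenced from 27 libraries with a kit that does not mark strand, per the labels' protocols. The authors deposited a single table for these libraries, whose header names the values FPKM, with 23710 gene symbols. STAR, featureCounts, DESeq2 and the build hg19 are named in the submitters' processing notes; versions, annotation, filters and the handling of shared reads are not given in the sources here. Whole reads and gene lengths were recovered from the steps between low FPKM values, within 0.02 reads, for 100% of 16934 genes tried in the knockdown columns and 100% of 15171 in the compound columns. The lengths behind the 2 sets differ by over 2 fold for 54.1% of 15110 genes, so compound values are given as ratios. In the compound columns 28 symbols hold no value.

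The values were fitted as log2(FPKM + 1) with limma 3.58.1 in R 4.3.3, with a mean-variance trend, for genes at 1 FPKM or more in 3 or more libraries of the fit. The 12 H460 knockdown, 6 H2122 and 9 compound libraries were fitted separately, and the difference between lines used H2122 with the H460 shNRF2 and shGFP libraries. Calls required p under 0.05 after Benjamini-Hochberg adjustment over all genes. Fits and read recovery were tested on simulated data. Alternatives were a pseudocount of 0.1, no filter, rescaling to a common total, only the compared groups, a replicate block, limma's voom on recovered reads, and leaving out each library.

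The members and lists were chosen with earlier results of these data known. Named genes are the 6 members, NFE2L2, NR0B1, SNW1 and KEAP1, per list and comparison up to 3 called genes each way with the largest change, and the 5 genes most like NQO1, CBR1, CBR3 and PTGR1. Of the genes under this rule, 2 are not reported here. HSD17B8 in H2122 falls outside that rule and was named after its value was seen. Promoters came from RefSeq (GRCh38.p14).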

Additional observations from a re-analysis of the deposited data

Results flagged for a closer look

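NQO1 moved in opposite directions after NRF2 knockdown: every library of H2122 shNRF2 lay below every library of H2122 shGFP, with a log2 fold change of -0.88, and every library of H460 shNRF2 lay above every library of H460 shGFP, with 0.31. The difference was not tested, since it helped to choose the genes, and the lines also differ in knockdown time.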

How the results depend on the processing

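Of 432 alternative values for tested fold changes of the 6 genes, 409 kept their direction and side of the threshold. No filter, the replicate block and only the compared groups leave a fold unchanged in these balanced groups. Values under these settings could change side of the threshold but not direction, and the described values below could not move under them. CBR1 after NR0B1 knockdown, -0.07 and not called, became 0.010 on rescaling to a common total and 0.014 with voom. NQO2 after BPK9 ranged from -0.0073 (without replicate 2 of BPK9) to 0.035 when single libraries were left out. With voom, 2 of the 6 were called after BPK9 against none with log values, and the genes called over the whole table numbered 238 with voom, 9 on rescaling to a common total, and 2 with no filter, with only the compared groups or without replicate 1 of DMSO, against 1. The cause was not tested. Leaving out single libraries, 3 to 4 of the 6 were called for BPK29 against DMSO and 3 to 5 for BPK29 against BPK9; the NR0B1, SNW1, NR0B1 against SNW1 and BPK9 comparisons kept 5, 6, 5 and 0. With the replicate block, the counts were 5 for NR0B1, 6 for SNW1, 5 for NR0B1 against SNW1, 4 for BPK29, 0 for BPK9 and 4 for BPK29 against BPK9, as without it; same-numbered libraries deviated together little (correlations -0.0933 to 0.13 in H460, 0.054 to 0.126 in H2122, -0.0346 to 0.0721 with compounds), so the numbers do not pair them. Of the 240 values described for NRF2 knockdown, only that of CBR1 in H460 without replicate 3 of H460 shGFP (0.013 against -0.013) changed sign, and 10 moved by more than the spread between replicates, 2 with a pseudocount of 0.1, 3 on rescaling and 5 with voom, among them NQO1 in H460 (0.27 with voom against 0.31) and CBR4 in H2122 (1.26 with voom against 1.10). Depth limits CBR3 and CBR4 most in read number, with as few as 169 and 215 reads in a library.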
